A study of Chlamydomonas reinhardtii with 2 samples.

Results

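The 9 nuclear genes described here encode PFL1 and the enzymes around it in the anaerobic metabolism of the unicellular green alga Chlamydomonas reinhardtii. They were taken by gene symbol (PFL1, PAT1, PAT2, ACK1, ACK2, ADH1, HYDA1, HYDA2 and PFR1), and each symbol matched 1 of the 17611 nuclear reference genes in the files. Transcript levels came from RNA sequencing of 2 libraries, 1 of strain CC5325 and 1 of strain CC125. The labels call the genotype of both strains WT and give both the same culture, with acetate and light together (TAP medium, 25 °C, 20 μmol photons per m2 per s, on a shaker). No anoxic treatment is named. With 1 library per strain there is no replicate check of any difference and no test between strains. Each library is a bulk culture, so fewer cells with a transcript and less of it per cell cannot be told apart.

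When this alga runs out of oxygen it breaks stored starch down to pyruvate and disposes of the pyruvate by several routes. PFL1, pyruvate formate-lyase, splits pyruvate into formate and acetyl-CoA. PFR1, pyruvate:ferredoxin oxidoreductase, also makes acetyl-CoA but passes electrons to ferredoxin, from which the [FeFe] hydrogenases HYDA1 and HYDA2 release hydrogen gas. Acetyl-CoA leaves either as acetate, through phosphate acetyltransferase (PAT1, PAT2) and acetate kinase (ACK1, ACK2), or as ethanol, through the bifunctional alcohol and aldehyde dehydrogenase ADH1. PAT2 and ACK1 serve the plastid and PAT1 and ACK2 the mitochondrion.

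All levels below rest on few reads. The files give Coverage, the mean number of reads per base, and TPM, a relative abundance per length. Taken over whole gene spans, nuclear genes held no more than 106556 reads (150 bases each) in CC5325 and 32002 in CC125, and without 1 dominant gene with no symbol (Cre08.g374100) to 75825 and 12689. Spans include introns, so these read numbers are upper limits. Transcripts of photosynthesis were present in both libraries, with RBCS2 at 8.20 TPM (CC5325) against 6.76 TPM (CC125), and LHCBM1 at 12.4 against 6.07 TPM. PSAD1 stood at 1.31 against 0.958 TPM. PSBO1 differed more, at 3.08 against 0.141 TPM.

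PFL1 was the most abundant of the 9 genes in both libraries. The gene (Cre01.g044800) lies on chromosome 1 at 6303346 to 6308787, plus strand, in the coordinates of the CC-4532 version 6.1 annotation, and spans 5442 bp. Its Coverage was 8.64 in CC5325 and 0.748 in CC125, and its TPM 3.68 and 0.649. That is at most 313 reads in CC5325 and 27.1 in CC125. Among nuclear genes it ranked 54 of 17611 by TPM in CC5325 and 145 in CC125, so it stood above 99.7% and 99.2% of them. The log2 ratio of TPM + 1, CC5325 over CC125, was 1.51, and 1.41 with TPM taken from coverage, which gives 3.39 TPM in CC5325. The scale between libraries taken from the deposited ratio of TPM to Coverage gave a coverage ratio of 5.21, with an exact binomial 95% interval of 3.53 to 8.06 that covers counting error only. The chromosome 1 block of 36 high-coverage genes in CC5325 ends at position 275561, far to the left of PFL1. Of the PFL1 span, 975 bp overlap a gene on the opposite strand, Cre01.g044850, listed at 0.0206 and 0.0433 TPM; whether the counting used strand is not given in the sources used here.

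**Figure D1:**
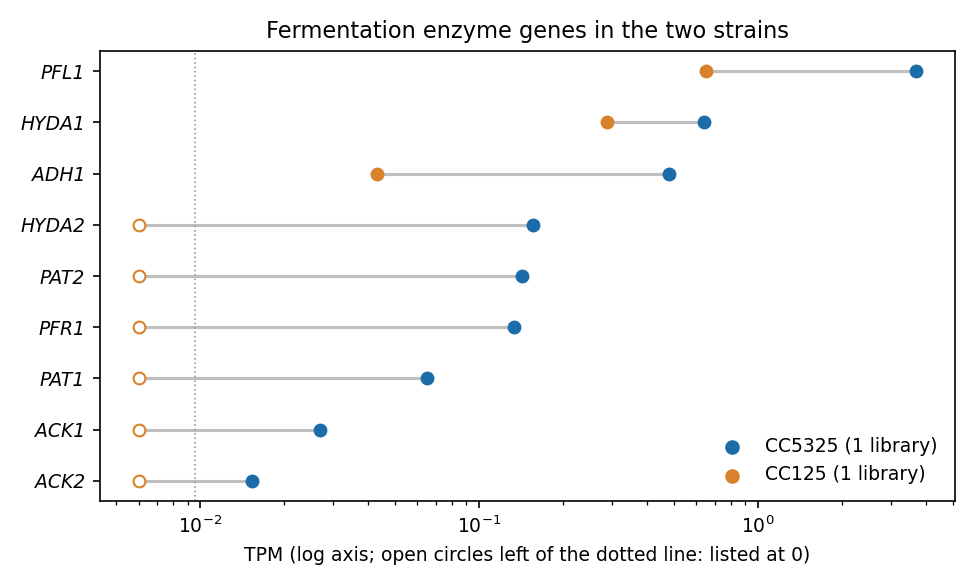
TPM of each of the 9 genes (log axis) in the CC5325 library and the CC125 library, with no error bars because each strain has 1 library; open circles mark genes listed at 0. Each gene is listed higher in CC5325, although ACK1 and ACK2 lie below what a count of 0 in CC125 allows, PFL1 leads in both libraries at 3.68 and 0.649 TPM, and 6 genes are listed at 0 in CC125.

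The hydrogenase gene HYDA1 was next in abundance, and of the genes seen in both libraries its levels were closest between the strains. HYDA1 (Cre03.g199800, chromosome 3, 8247758 to 8252486, minus strand) had a Coverage of 1.63 in CC5325 and 0.330 in CC125, or 0.639 and 0.286 TPM. These values rest on at most 51.4 and 10.4 reads. HYDA1 ranked 265 among nuclear genes in CC5325 and 241 in CC125, so its place in the library was about the same in both. Its coverage ratio was 2.23, with a counting interval of 1.15 to 5.08. The paralog HYDA2 (Cre09.g396600, chromosome 9, 2037526 to 2041991, minus strand) stood at a Coverage of 0.400 and 0.157 TPM in CC5325, from at most 11.9 reads, while CC125 listed it at 0. A count of 0 in CC125 allows up to 0.0875 TPM if all of the HYDA2 span is read as exon (3 reads). At an exon share taken as typical it allows 0.124 TPM. That share came from genes selected in a way that favours high shares, so limits at it may be too low. The CC5325 interval for HYDA2, 0.0816 to 0.276 TPM by counting, takes in both limits. The counting interval of the HYDA2 ratio starts at 1.25 with reads over the span and at 0.770, below equality, at the typical exon share. Reads can be split between the hydrogenase paralogs, and 1190 bp of HYDA2 overlap Cre09.g396550 on the opposite strand, which was listed at 0.0838 and 0.0320 TPM.

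ADH1, on the route to ethanol, had the largest coverage ratio of the genes seen in both libraries and the thinnest support in CC125. ADH1 (Cre17.g746997, chromosome 17, 6813893 to 6822109, minus strand) had a Coverage of 1.23 in CC5325 and 0.0495 in CC125, or 0.481 and 0.0430 TPM. This is at most 67.3 reads against 2.71. Its rank was 308 in CC5325 and 1364 in CC125. The coverage ratio of 11.2 had a counting interval of 3.30 to 50.1, which takes in the PFL1 ratio of 5.21.

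PFR1, the second route from pyruvate to acetyl-CoA, was seen in CC5325 alone. PFR1 (Cre02.g095137, placed by the files on chromosome 11, 2307779 to 2316077, minus strand) had a Coverage of 0.339 and 0.133 TPM in CC5325, from at most 18.8 reads, while CC125 listed it at 0. The limit a count of 0 allows there is 0.0471 TPM over the span and 0.0668 TPM at the typical exon share. The CC5325 counting interval of PFR1 over the span, 0.0810 to 0.210 TPM, lies above both when reads are taken as independent. The interval of its ratio starts at 2.11 over the span and at 1.37 at the typical exon share. A lower exon share would lower this start. Both reads of a pair are counted here, so intervals by pair would be wider and the limits higher. Neither was computed.

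The acetate branch was low in CC5325 and listed at 0 throughout in CC125. PAT2 (Cre09.g396650, chromosome 9, 2025973 to 2036686) led it, with a Coverage of 0.363 and 0.142 TPM from at most 25.9 reads. PAT1 (Cre17.g699000, chromosome 17, 466856 to 478298) stood at a Coverage of 0.166 and 0.0649 TPM from at most 12.6 reads. The kinases were lower still. ACK1 (Cre09.g396700, chromosome 9, 2019249 to 2024975) had a Coverage of 0.0683 and 0.0267 TPM, and ACK2 (Cre17.g709850, chromosome 17, 1905104 to 1911470) a Coverage of 0.0390 and 0.0153 TPM. They rest on at most 2.61 and 1.66 reads. In CC125 a count of 0 allows up to 0.0365 TPM for PAT2, 0.0342 for PAT1, 0.0682 for ACK1 and 0.0614 for ACK2 over their spans. At the typical exon share the limits are 0.0517 TPM for PAT2 and 0.0484 for PAT1. PAT2 in CC5325, at 0.0932 to 0.209 TPM over the span, was above its limit when reads are taken as independent. PAT1, at 0.0355 to 0.114 TPM, was not clear of it at the typical exon share, and ACK1 and ACK2 were below theirs, so that no difference in the kinases was detectable at this depth. The interval of the ratio starts at 1.98 for PAT2 and at 0.890 for PAT1 at the typical exon share. ACK1, PAT2 and HYDA2 lie next to each other on the same strand within 22743 bp of chromosome 9, with gaps of 997 and 839 bp. In CC5325 ACK1 was the lowest of these neighbours and PAT2 and HYDA2 were close to each other.

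The order by TPM in CC5325 was PFL1, HYDA1, ADH1, HYDA2, PAT2, PFR1, PAT1, ACK1 and ACK2. PFL1 stood apart from HYDA1, since its counting interval of 3.02 to 3.78 TPM did not meet that of HYDA1 (0.472 to 0.833 TPM). The PFL1 interval belongs to its TPM from coverage, 3.39, and not to the listed value. HYDA1 and ADH1 (0.371 to 0.609 TPM) did not differ beyond counting error, and ADH1 lay above HYDA2 when reads are taken as independent. From HYDA2 down to ACK2 each gene overlapped the next in the order. In CC125 the order of the genes listed above 0 was PFL1, HYDA1 and ADH1. The PFL1 interval there, 0.426 to 0.940 TPM, overlapped that of HYDA1 (0.132 to 0.507 TPM), and the ADH1 interval of 0.00981 to 0.139 TPM overlapped that of HYDA1. PFL1 held 69.0% of the summed TPM of the 9 genes in CC5325 and 66.3% in CC125. The sums were 5.34 and 0.979 TPM.

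The other 8 genes were also listed higher in CC5325, but so were most genes of the library. For HYDA1, HYDA2, PAT1, ACK1 and ACK2 a counting interval took in equality under at least 1 estimate of reads. Those of PAT2 and PFR1 did not, but they count both reads of a pair, and intervals by pair were not computed. They also use an exon share that may be too high, and no lower share was run. All 9 genes were listed above 0 in CC5325, against 53.2% of nuclear genes, and 3 of 9 in CC125, against 20.9%. The other 6 were listed in CC5325 alone, as were 35.8% of nuclear genes, and none in CC125 alone (3.51% of nuclear genes) or in neither library (43.3%). With a mean of at least 1 TPM, 1 member (PFL1) of the 1 that passed reached a 2-fold excess in CC5325 on the log2(TPM + 1) scale, against 38.5% of the 156 nuclear genes that passed, while 4.49% were at least 2-fold lower. The median log2 ratio of those 156 genes was 0.60, PFL1 lay 0.91 above it, and 73.7% of the 156 genes lay below PFL1. With the median set to 0 PFL1 falls below 2-fold. All 16 genes of the chromosome 1 block that passed were at least 2-fold higher, and without them 44 of 140 genes were higher (31.4%), the median was 0.42, PFL1 lay 1.09 above it and so past 2-fold, and 82.1% of genes lay below PFL1.

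At lower levels the comparison was made by coverage over genes with at least 10 estimated reads in the sum of both libraries, which 7 of the 9 members reached (ACK1 and ACK2 did not). Each of the 7 was 2-fold or more above CC125, but 69.5% of the 1396 nuclear genes were too, and 4.23% were at least 2-fold lower. Of the 7, 4 were listed at 0 in CC125, against 23.9% of the 1396 genes. A gene with few reads in CC125 reaches 10 reads only through CC5325, so such a member had to be higher there. With values of 0 set to 3 reads, 5 of 7 members were at least 2-fold higher, against 60.3% of genes. The median ratio of the 1396 genes was then 2.48. ADH1 stood at 4.52 times this median, PFL1 at 2.10 times, PAT2 at 1.57, PFR1 at 1.14, HYDA1 at 0.901, PAT1 at 0.768 and HYDA2 at 0.722. Relative to these 1396 genes, then, ADH1 and PFL1 lay above the middle (above 92.7% and 79.9% of genes) and HYDA1 below it (above 44.6%). With genes at 0 in CC125 given an infinite ratio, the median was 3.94. The counting intervals of PFL1 (3.53 to 8.06) and ADH1 (3.30 to 50.1) took in that median. That of HYDA1 (1.15 to 5.08) took in this median and that of 2.48, and overlapped that of PFL1. Whether HYDA1 lies below the middle, or apart from PFL1, is thus not resolved. The values for PAT2, PFR1, PAT1 and HYDA2 are set by the 3 reads put in place of 0. With the median ratio set to 1, 2 members were at least 2-fold higher, and with the summed nuclear reads other than Cre08.g374100 made equal, 1 was, ADH1. The split of all genes then went from 69.5% higher and 4.23% lower to 21.8% and 17.2%, and to 19.1% and 19.5%.

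**Figure D2:**
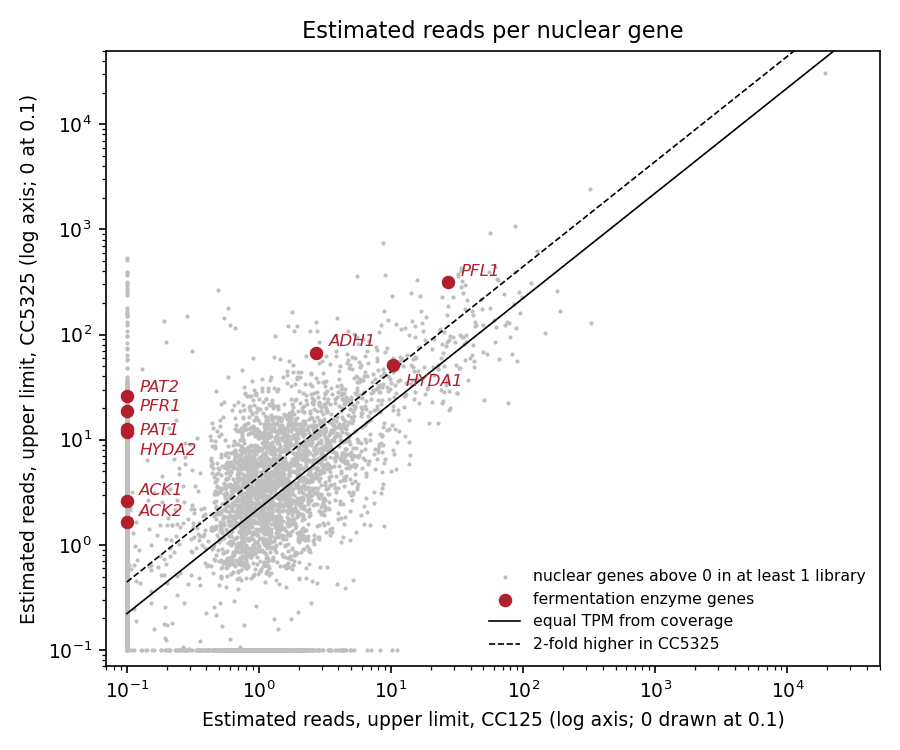
Estimated reads per gene, upper limits from Coverage and gene span, in CC125 (horizontal, log axis) and CC5325 (vertical, log axis) for nuclear genes listed above 0 in at least 1 library; values of 0 are drawn at 0.1. The solid line marks equal TPM from coverage and the dashed line 2-fold. PFL1 sits at 313 and 27.1 reads with many genes around it, and 6 of the 9 genes lie on the left edge at 0 in CC125.

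**Figure D3:**
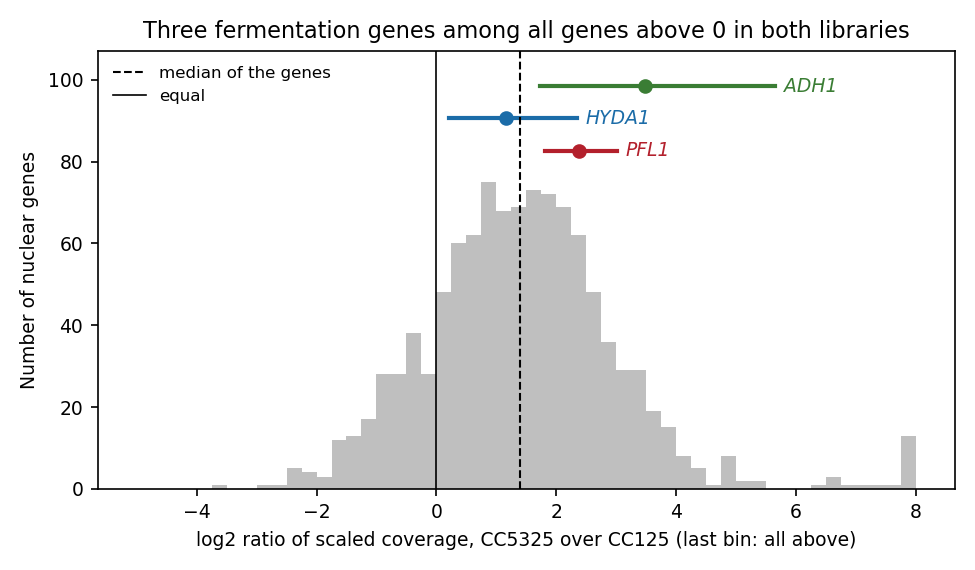
Number of nuclear genes by log2 coverage ratio, CC5325 over CC125, for the 1060 genes above 0 in both libraries with at least 10 estimated reads; points with bars are PFL1, HYDA1 and ADH1 with 95% counting intervals, and the last bin holds all higher ratios. The dashed line is the median gene, at a ratio of 2.62. PFL1, at 5.21, lies above 76.4% of the genes, ADH1, at 11.2, above 92.1%, and HYDA1, at 2.23, above 43.1%.

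The decimals of Coverage may narrow the read numbers, but the exon lengths they give are tentative. Of 70 organelle genes tried as a check, 47 gave no length and 20 their full span. Coverage is bases divided by exon length, and for 2769 of the 3054 nuclear genes above 0 in both libraries (90.7%) some length within the span turned both values into whole numbers of bases to the 6 decimals given, where a median of 0.0846 chance matches per gene is expected. For HYDA1 the only such length was 2611 bp (55.2% of the span), with 4258 bases in CC5325 and 861 in CC125, the equivalent of 28.4 and 5.74 reads. The HYDA1 interval then widens to 0.855 to 6.22, and takes in equality. For ADH1 it was 4485 bp, with 5509 and 222 bases, or 36.7 and 1.48 reads, but 0.266 chance matches are expected for its longer span, so this length is less sure than that of HYDA1 (0.0508 expected). Both exon shares are below the typical one used above for genes listed at 0, and a lower share raises the limits given there. At this length the ADH1 value in CC125 is no more than about 1 read pair, and its interval runs from 2.82 to 677. For PFL1 the length is 1023 bp or a multiple of it up to 5115 bp, which leaves between 58.9 and 295 reads in CC5325 and between 5.10 and 25.5 in CC125. Over these lengths the lower end of the PFL1 interval ranged from 2.16 to 3.42 and stayed above 1. Against the median gene the excess was less sure. At 1023 bp the interval ran from 2.16 to 17.0 and took in the median of 2.48 found with zeros at 3 reads. At each length it took in the median of 3.94 found with zeros in CC125 as infinite.

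The authors' run also assembled loci from the reads, and such loci lay at 4 of the 9 genes. In CC5325 1 assembled locus covered the whole annotated span of PFL1, and in CC125 2 fragments of 463 and 1009 bp covered 27.0% of it. HYDA1 held 3 assembled fragments in CC5325, together 55.1% of its span, and 1 of 652 bp in CC125. ADH1 held 6 in CC5325, together 51.0% of its span, and none in CC125. PAT2 held 2 in CC5325, together 15.6%, and none in CC125. No assembled locus overlapped HYDA2, PFR1, PAT1, ACK1 or ACK2 in either library. The TPM of a fragment that covers part of a gene is that of the covered stretch alone and exceeds the gene's own value. The fragments of PFL1 in CC125 were listed at 1.95 and 1.46 TPM, against 0.649 TPM for the gene. In CC5325 the locus over the whole PFL1 span was also listed higher, at 4.56 TPM against 3.68 TPM for the gene. Both entries had the same Coverage, 8.64, and the reason for the higher TPM was not tested.

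Around the hydrogenases, the maturation gene HYDG1 and the ferredoxin gene FDX5 were higher in CC5325, while the ferredoxin and reductase of photosynthesis were not. Of 17 symbols of hydrogenase maturation and electron carriers 13 were in the files, 7 were above 0 in both libraries and 5 had at least 10 reads, 3 of which were at least 2-fold higher in CC5325 by coverage and none 2-fold lower. That share is no higher than the 69.5% of all genes. HYDG1 and HYDEF1, which build the catalytic cluster of the hydrogenase, stood at 0.744 against 0.0834 TPM and 0.272 against 0.0812 TPM. Their coverage ratios were 8.92 (counting interval 3.10 to 47.2) and 3.35 (1.42 to 11.7). At the exon lengths that the decimals of Coverage give, the intervals are 2.53 to 82.6 for HYDG1 and 0.994 to 17.3 for HYDEF1, which takes in equality. They overlap by 199 bp on opposite strands. FDX5, a ferredoxin known from anoxic and copper-poor cells, stood at 1.53 TPM in CC5325, from at most 29.3 reads, and at 0 in CC125. FDX1, the main photosynthetic ferredoxin, stood at 2.07 against 3.64 TPM, with a ratio by coverage of 0.568 (0.332 to 0.997, and 0.301 to 1.07 at its exon length, which takes in equality), and FNR1, ferredoxin-NADP reductase, at 0.784 and 0.845 TPM (0.928, 0.549 to 1.59). The hybrid cluster protein genes HCP2, HCP3 and HCP4 stood at 0.0704, 0.106 and 0.0393 TPM in CC5325 and at 0.0435, 0.0343 and 0.0265 TPM in CC125, from at most 8.24 reads each. FDX6 (0.0487 TPM) and HCP1 (0.0185 TPM) were seen in CC5325 alone.

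Genes of the pyruvate and acetyl-CoA branch were low, apart from 2 of the 3 acetyl-CoA synthetase genes. Of 32 symbols 25 were in the files and 23 were above 0 in CC5325, 12 in CC125 and 11 in both. With at least 10 reads there were 11, of which 8 were at least 2-fold higher in CC5325 by coverage, none 2-fold lower and 3 within 2-fold. That share is near the 69.5% of all genes. ACS3 stood at 1.52 against 0.179 TPM, with a ratio by coverage of 8.47 (4.28 to 18.5), and ACS2 at 0.680 and 0.0664 TPM, a ratio of 10.2 (4.01 to 30.3). Both activate acetate, which the medium holds. The other, ACS1, was listed at 0 in both libraries. PYC1, pyruvate carboxylase, stood at 0.177 TPM in CC5325 from at most 39.8 reads and PDC3, pyruvate decarboxylase, at 0.108 TPM, both listed at 0 in CC125. So were PDC1 (0.0909 TPM in CC5325) and MME6 (0.0600 TPM). Of the others above 0 in both libraries, PDC2, PDH2, DLD1, ALDH2, AAT1, MME3 and PEPC2 stood between 0.0473 and 0.164 TPM in CC5325 and between 0.0185 and 0.103 TPM in CC125, each with a counting interval that took in equality. AAT2 (0.0425 and 0.0484 TPM) and FMR1 (0.0131 and 0.0227 TPM) had fewer than 10 reads. PFLA1, the activase that PFL1 needs, was listed at 0.0112 TPM in CC5325, from at most 1.17 reads, and at 0 in CC125.

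Genes of glycolysis, which supplies the pyruvate, were mixed. Among those with at least 10 reads, the ratio intervals of FBA3, FBA1 and PYK3 over the span lay below that of PFL1 (3.53 to 8.06). Those of the others overlapped it. At the shortest exon lengths that the decimals of Coverage give, the FBA1 interval (0.121 to 2.84) overlapped that of PFL1 (2.16 to 17.0). Of 25 symbols 20 were in the files, 14 were above 0 in both libraries and 10 had at least 10 reads. By coverage 5 of the 10 were 2-fold or more above CC125, 1 was 2-fold lower and 4 were within 2-fold, against 69.5% and 4.23% of all genes. PGI1, glucose-6-phosphate isomerase, stood at 0.267 and 0.0180 TPM, where CC125 had at most 0.914 reads and the ratio was 14.8 (2.25 to 552). PYK5, a pyruvate kinase, stood at 0.161 and 0.0510 TPM (3.16, 1.04 to 18.0, and 0.841 to 15.1 at its exon length, which takes in equality). ENO1 (enolase) stood at 0.392 and 0.174 TPM, PGK1 (phosphoglycerate kinase) at 0.414 and 0.232 TPM, GAPC1 at 0.189 and 0.0343 TPM and PYK4 at 0.0659 and 0.0199 TPM, and each interval took in equality. The aldolase FBA3, the most abundant of the list, stood at 2.77 and 3.48 TPM, FBA1 at 0.151 and 0.297 TPM and PYK3 at 0.0336 and 0.0835 TPM, ratios of 0.796 (0.598 to 1.08), 0.510 (0.218 to 1.08) and 0.403 (0.135 to 1.17), which all take in equality. PYK1, PYK2, TPIC1, PFK2 and FBA2 rested on at most 7.92 reads in CC5325 and stood between 0.0282 and 0.0734 TPM there. PFK1, PGM1, PGM2 and HXK1 were seen in CC5325 alone, at 0.0293 to 0.0630 TPM.

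In the low-oxygen and copper list, CPX1 and CHL27A were far higher in CC5325, and no difference was detectable in the gene of their regulator. Of 17 symbols 15 were in the files, 11 were above 0 in CC5325 and 3 in CC125 (53.2% and 20.9% of all nuclear genes). Of the 4 with at least 10 reads, 2 were at least 2-fold higher and 2 within 2-fold, a share below the 69.5% of all genes. CPX1, coproporphyrinogen oxidase, stood at 2.21 TPM in CC5325, from at most 150 reads, and at 0 in CC125. CHL27A, a subunit of the cyclase of chlorophyll synthesis, stood at 1.92 and 0.0243 TPM, at most 116 against 0.663 reads. With FDX5 of the electron carrier list, these are known targets of the copper response regulator CRR1, whose own gene stood at 0.236 and 0.133 TPM, a ratio of 1.78 (0.758 to 4.27). CYC6, cytochrome c6, another known target, stood at 0.182 TPM in CC5325, from at most 4.74 reads, and at 0 in CC125. CHL27B stood at 0.121 TPM in CC5325 and at 0 in CC125, from at most 6.41 reads. CTR1, a copper transporter gene, stood at 0.0698 TPM in CC5325 and at 0 in CC125. LCS2 stood at 0.0384 and 0.0383 TPM. Oxygen and copper in the cultures are not given in the labels, and their part in these values was not tested.

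**Figure D4:**
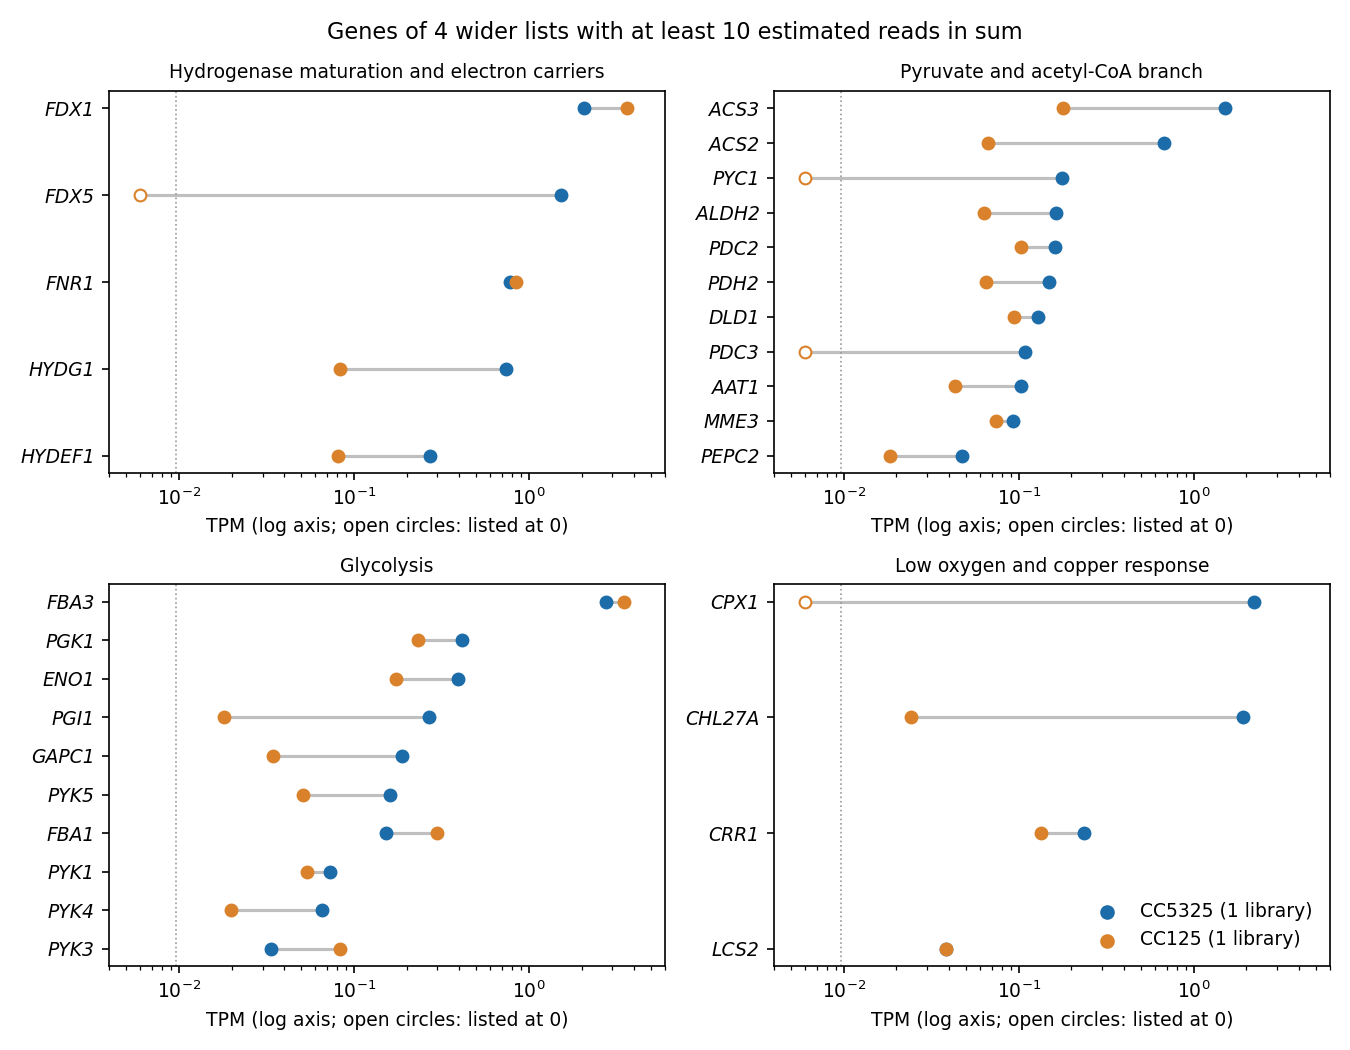
TPM (log axis) in the CC5325 and CC125 libraries for genes of the 4 wider lists with at least 10 estimated reads in sum; open circles mark genes listed at 0, and there are no error bars because each strain has 1 library. The widest gaps are those of CPX1 (2.21 TPM against 0), CHL27A (1.92 against 0.0243) and FDX5 (1.53 against 0), while FDX1, FNR1, FBA3, FBA1 and PYK3 are higher in CC125.

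The genes with the levels most like those of PFL1 belonged to other processes. By distance of log2(TPM + 1) in the 2 libraries, over nuclear genes with a symbol, the nearest was RB47, a poly(A)-binding protein gene, at 3.48 and 0.635 TPM (distance 0.067). Then came RPLP0 of the ribosome (3.49 and 0.805 TPM), LHCBM2 of the light-harvesting antenna (4.26 and 0.537 TPM), the elongation factor gene EEF1A3 (3.78 and 0.907 TPM) and LHCB4 (4.18 and 0.360 TPM), at distances of 0.14 to 0.31. None of the other 8 fermentation genes was among these 5, and given their levels none could be. The highest of them, HYDA1, stood at 0.639 TPM in CC5325, against 3.68 TPM for PFL1. The distance thus cannot show whether they follow PFL1 between strains. The likeness of the 5 genes to PFL1 rests on 2 libraries.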

How the data were processed

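Each of the 2 libraries has 1 table. Per the labels' protocols, total RNA was depleted of ribosomal RNA and read as paired ends of 150 bases. The authors named HISAT2 2.2.1, StringTie 2.2.3, Trimmomatic and FastQC 0.12.1, per the submitters' processing notes, with settings not given in the sources used here. Coverage, as deposited, is a mean read depth over a gene's bases (a signal not scaled for depth). FPKM, as deposited, is fragments per kilobase and per 1000000 fragments. TPM, as deposited, adds up to 1000000 over assembled loci, with reference genes on top.

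Estimated reads are Coverage times gene span over 150, upper limits because spans hold introns. TPM from coverage is Coverage multiplied by the median TPM to Coverage ratio of that library (0.392 in CC5325, 0.868 in CC125), and coverage ratios are on that scale. Intervals are exact at 95% (binomial for ratios, Poisson for levels), treat reads as independent and cover counting error only. Values of 0 were limited by 3 reads. Both reads of a pair are counted, so the intervals are too narrow and the limits for values of 0 too low. Exon lengths were those from 200 bp up to the span that make bases whole in both libraries. Among 937 genes with 1 such length and under 0.1 chance matches expected, exons made up a median of 70.5% of the span, the typical exon share. Multiples of a fitting length also fit, so 1 length remained only where its next multiple passed the span. That selection favours high exon shares, so the typical share may be too high and the limits at it too low. As a check, 70 organelle genes were tried: 20 gave their full span, 3 another length only and 47 none. Fold changes are on the log2(TPM + 1) scale, which understates low genes. A difference was 2-fold, with a filter of a mean of 1 TPM or of 10 reads in sum.

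Named were all members, list genes above 0 in both libraries or with up to 4 highest means per list, and the 5 genes nearest to PFL1. PFLA1 was also named, after its value was seen, because PFL1 depends on it. The members and lists were chosen with earlier results of these data known. Alternatives were other pseudocounts, FPKM, scalings, filters and read estimates. Intervals and exon lengths were tested on simulated data. The simulated coverages were built from known lengths, so they cannot show whether the deposited values follow that rule. Scripts ran in Python 3.11.15 with scipy 1.17.1, numpy 2.4.6, matplotlib 3.10.9 and pandas 2.3.3.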

Additional observations from a re-analysis of the deposited data

How the results depend on the processing

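The PFL1 log2 ratio of 1.51 stayed above 0 under each alternative run, at 2.34 with a pseudocount of 0.1, 0.62 with a pseudocount of 5, 0.91 with the median set to 0, 1.08 with FPKM and 1.06 with equal nuclear sums. It passed 2-fold in each but a pseudocount of 5 and the median set to 0. The count of members at least 2-fold higher, 1, was 0 with a pseudocount of 5, with FPKM (where PFL1 did not pass the filter) and with the median set to 0. Over all nuclear genes, 60 were higher and 7 lower. These counts were 8 and 3 with a pseudocount of 5, 26 and 3 with FPKM, 36 and 27 with the median set to 0, and 40 and 24 with equal nuclear sums, and 75 and 11 with a pseudocount of 0.1. In percent of the genes tested, the split went from 38.5 higher and 4.49 lower to 23.1 and 17.3 with the median set to 0 and 26.1 and 15.7 with equal nuclear sums. Without the chromosome 1 block, chosen after seeing the data, 44 were higher and 7 lower, and with the median then set to 0 the PFL1 ratio was 1.09, past 2-fold, with 28 higher and 17 lower. By coverage, 7 members at least 2-fold higher became 5 with reads at the typical exon share (of 5 tested), 5 with zeros at 3 reads, 2 with the median ratio also set to 1 and 1 with nuclear reads other than the dominant gene made equal. These settings by coverage were chosen after seeing the data. Over 3 reads, 7 members remained in CC5325 and 2 in CC125. Reads over a coding length were not run, since no coding lengths were used here. No paired analysis was possible because each strain has 1 library, and no library could be left out. Depth limits every statement on members other than PFL1, and for PFL1 that on its excess over the median gene.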
